A study of Mus musculus with 22 samples.

Results

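The double negative cells of tumor stroma, which carried neither the TdTomato reporter nor CD45 at the sort, were compared between Cdh2-cKO and wild type mice. The libraries were chosen by their labelled population and genotype, which gave 3 Cdh2-cKO and 3 wild type libraries, 6 of the 22 libraries of the series. All mice were C57BL/6 at postnatal day 56 and bore a tumor of a mouse mammary line, which the labels call orthotopic MMTV-BO1 and the stated design of the deposit calls subcutaneous. The wild type mice were not free of transgenes: they carried Osx-cre and the Ai9 reporter, in which TdTomato is switched on by Cre. The other genotype, labelled Cdh2-cKO;Ai9, has by its name a conditional knockout of Cdh2, and the labels do not spell out its alleles. Per the labels 6 Cdh2-cKO and 4 wild type mice were inoculated, and preparations that passed a check of RNA integrity were sequenced. Cre was driven by the promoter of Osx (Sp7), a transcription factor of osteoblast precursors, so the sort for cells without TdTomato kept the cells in which Cre had not switched on the reporter. Per the methods of the study, the sorted stromal cells were separated from the GFP-labelled tumor cells. Per the paper, the Osx-cre mice of its later experiments were fed doxycycline until weaning, which holds Cre off. Cells that expressed Osx only before weaning would then lack TdTomato. The comparison asks how the cells without TdTomato and without CD45 differed between the genotypes. It is given with all 6 libraries and with wild type replicate 3 left out, because that library held RNA of CD45+ cells.

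As background, Cdh2 encodes N-cadherin, a calcium-dependent adhesion protein that joins like cells through its outer part and binds the catenins, and through them actin, inside the cell. Osteoblasts and fibroblasts carry it. The non-immune stroma of a tumor is made largely of fibroblasts, which lay down collagen and secrete chemokines and complement, with endothelial cells and pericytes of the vessels. Stromal cells also respond to interferons, which act through transcription factors such as Irf9 on a shared set of antiviral and antigen presentation genes.

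The 6 libraries held 16594228 to 20239673 counted reads each. Levels are given as normalized CPM, in which each count is divided by a scaled library size, and 3 counts in a library correspond to between 0.148 and 0.181 CPM. Fibroblast genes were abundant in every library. Col1a1, which encodes a chain of type I collagen, was at 10012, 2631 and 1219 CPM in wild type replicates 1 to 3 and at 2674, 3102 and 5501 CPM in Cdh2-cKO replicates 1 to 3. Pecam1, an endothelial adhesion protein, was at 70.5, 87.8 and 20.8 CPM in the wild type and at 78.2, 30.3 and 164 CPM in the Cdh2-cKO libraries. Ptprc, which encodes CD45 itself, was at 4.46, 38.6 and 337 CPM in the wild type and at 9.3, 15.7 and 10.8 CPM in the Cdh2-cKO libraries. Krt18, a keratin of simple epithelia, was at 397, 1116 and 372 CPM in the wild type and at 973, 1569 and 845 CPM in the Cdh2-cKO libraries. Whether tumor cells without GFP signal remained in these libraries was not tested.

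The 3 wild type libraries stood apart from each other in different directions, while the 3 Cdh2-cKO libraries lay closer together. Wild type replicate 3 was rich in leukocyte RNA: 10 pan-leukocyte markers summed to 8501 CPM there against 489 and 1522 in the other wild type libraries and 529 to 800 in the Cdh2-cKO libraries. The 9 genes of MHC class II presentation summed to 33276 CPM in that library and to between 607 and 2005 CPM in the other 5. Wild type replicate 1 was rich in fibroblast RNA, with 32559 CPM over the fibroblast markers against 4341 to 14628 CPM in the other libraries. Hemoglobin and other erythroid genes summed to 3243 CPM in wild type replicate 2, to 1.61 and 37.7 CPM in wild type replicates 1 and 3, and to between 218 and 1065 CPM in the Cdh2-cKO libraries. Counts of 2 wild type libraries differed by 185 to 409 times what counting error alone gives, as a chi-square divided by its degrees of freedom, and those of 2 Cdh2-cKO libraries by 47.47 to 88.65 times. Wild type replicate 1 and Cdh2-cKO replicate 2 held both Xist, the RNA of the inactive X chromosome, and the Y-linked Ddx3y, at 62.6 and 69.3 CPM in the former and at 151 and 30.9 CPM in the latter. The other 4 libraries had 111 to 170 CPM of Xist and at most 8 counts of Ddx3y. The labels give no sex.

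**Figure D1:**
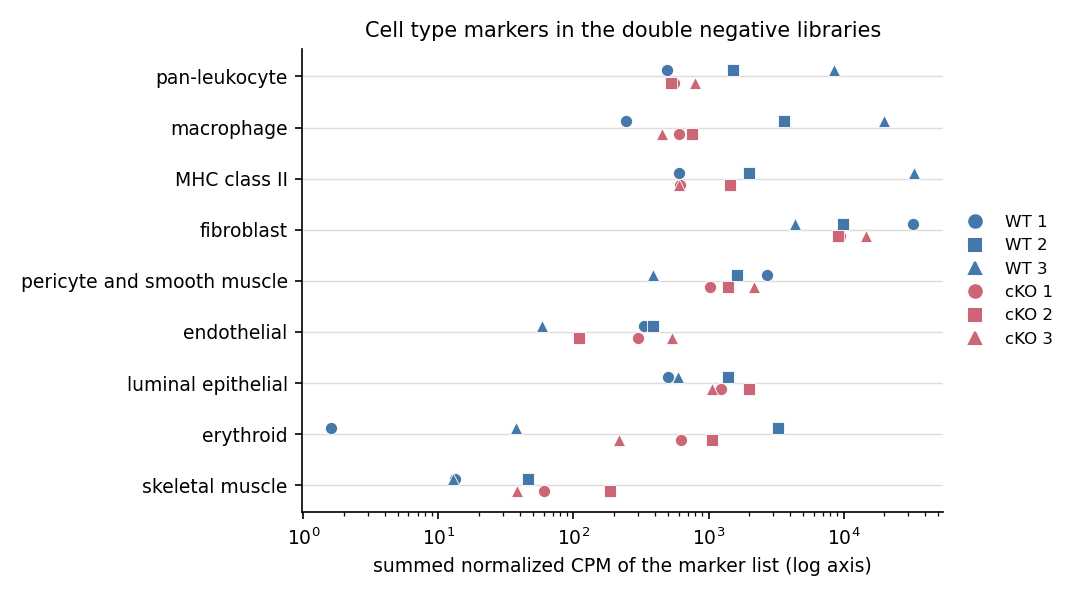
Summed normalized CPM of cell type marker lists (log axis) in each of the 6 double negative libraries, with wild type (WT) in blue and Cdh2-cKO (cKO) in red, one symbol per replicate. Wild type replicate 3 is highest for the leukocyte, macrophage and MHC class II lists (8501, 19957 and 33276 CPM), and wild type replicate 1 is highest for fibroblast markers (32559 CPM).

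The main test, edgeR's, called no gene between the genotypes in double negative cells. With all 6 libraries, 0 of 15043 genes tested passed a Benjamini-Hochberg adjusted p of 0.05 in edgeR's quasi-likelihood test, a background of 0%, and the smallest adjusted p was 0.131. At an unadjusted p under 0.05, 1269 genes were lower in the Cdh2-cKO cells (8.44% of those tested) and 174 were higher (1.16%). With wild type replicate 3 left out, again 0 of 15030 genes were called by edgeR (0%), and 326 genes were lower (2.17%) and 192 higher (1.28%) at an unadjusted p under 0.05. Of the genes lower at that p, 231 were shared by both comparisons, which is 18.2% of the list with all 6 libraries and 70.9% of the list without wild type replicate 3. Of those higher, 91 were shared, 52.3% and 47.4% of the respective lists. The 3 Cdh2-cKO libraries all lay below the 3 wild type libraries for 805 genes (5.35%) and all above them for 577 (3.84%).

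Other tests gave other counts on the same libraries. DESeq2 called 518 genes lower (3.44%) and 30 higher (0.199%) with all 6 libraries, and 2 lower (0.0133%) and 1 higher (0.00665%) without wild type replicate 3. For 102 and 120 genes, respectively, it gave no p. With all 6 libraries it gave a p but no adjusted p for a further 1445 genes, which could not be called. The shares are over all genes tested. limma's voomWithQualityWeights, which the methods of the study name, called 0 genes with all 6 libraries, where 1217 had an unadjusted p under 0.05, and 1 lower gene without wild type replicate 3. It weighted wild type replicates 1 and 3 at 0.3946 and 0.3121, against 1.836 for wild type replicate 2. With edgeR, leaving out wild type replicate 1 in place of replicate 3 gave 600 lower and 3 higher genes, and leaving out wild type replicate 2 gave 31 lower genes.

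To see how far these lists followed CD45+ cells, genes were marked as CD45-enriched where they were called at least 4-fold higher in the CD45+ than in the TdT single positive libraries, a comparison that used no double negative library. Of the genes tested, 1036 (6.89%) were CD45-enriched. They made up 622 of the 1269 genes lower at an unadjusted p under 0.05 with all 6 libraries (49%), 385 of the 518 called lower by DESeq2 (74.3%) and 434 of the 600 called lower by edgeR without wild type replicate 1 (72.3%). Without wild type replicate 3 their share of the lower genes was 64 of 326 (19.6%). Among the genes higher in Cdh2-cKO cells it was 0 of 174 with all 6 libraries. CD45-enriched genes took 14.6% of the normalized counts of wild type replicate 3, 0.409% and 1.97% of wild type replicates 1 and 2, and 0.617% to 0.752% of the Cdh2-cKO libraries. In the TdT single positive libraries, the baseline of the mark, their share was 0.298% to 7.56%. A gene less than 4-fold higher in CD45+ cells does not carry the mark. In such bulk libraries, fewer cells of a type and less RNA per cell cannot be told apart.

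**Figure D2:**
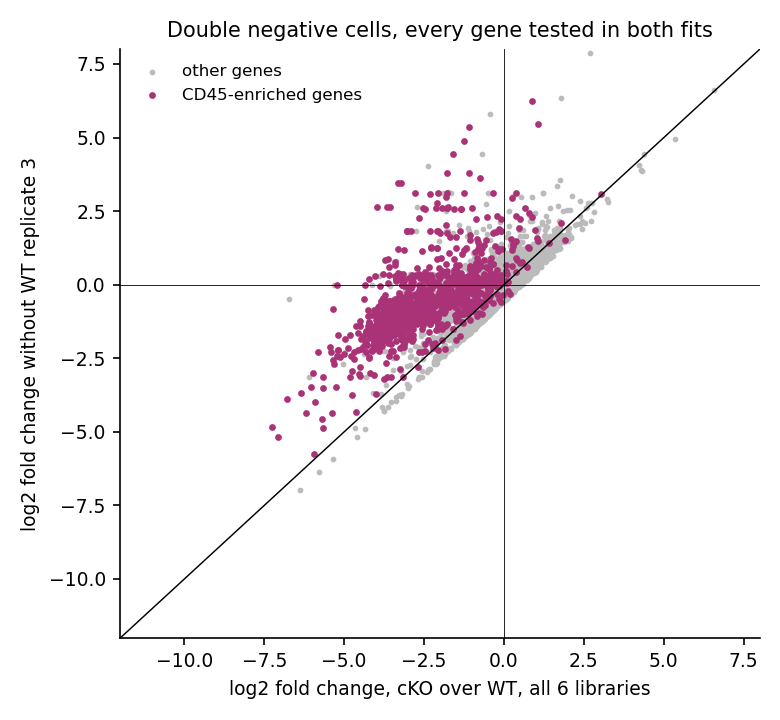
Log2 fold change of each gene, Cdh2-cKO over wild type, with all 6 libraries (horizontal axis) and with wild type replicate 3 left out (vertical axis), with the 1036 CD45-enriched genes in purple and the diagonal in black. CD45-enriched genes lie mostly left of 0 and above the diagonal, and most of their differences are nearer to 0 without that library.

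The gene with the smallest p, with and without wild type replicate 3, was Tnfsf13b, which encodes the B cell survival factor BAFF (chr8:10006467-10039072 on GRCm38). It was at 12.1, 6.19 and 11.9 CPM in the wild type libraries and at 2.21, 2.23 and 2.58 CPM in the Cdh2-cKO libraries. The groups did not overlap, and the lowest wild type library had more than the highest Cdh2-cKO library. The mean was 10.1 ± 3.35 CPM (SD, n = 3) in the wild type and 2.34 ± 0.211 (SD, n = 3) in Cdh2-cKO cells. Its log2 fold change was -2.10 ± 0.338 (SE) with all 6 libraries, with an adjusted p of 0.131 by edgeR, and -1.94 ± 0.379 without wild type replicate 3 (unadjusted p = 8.87e-05, adjusted p = 1 by edgeR). DESeq2 called it in both comparisons, with an adjusted p of 7.41e-05 with all 6 libraries and 0.0118 without wild type replicate 3. edgeR called it with wild type replicate 1 or 2 left out instead, with adjusted p of 0.0146 and 0.0198. In TdT single positive cells of the same study its log2 fold change was -0.89 ± 0.396, not called by edgeR (adjusted p = 0.456).

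Znfx1, a helicase-like sensor of viral RNA, lay at chr2:167035793-167063015. It was at 19.2, 15.8 and 21.8 CPM in the wild type and at 9.2, 7.03 and 9.96 CPM in the Cdh2-cKO libraries. These ranges did not overlap either. The log2 fold change was -1.11 ± 0.213 with all 6 libraries (adjusted p = 0.178 by edgeR) and -0.98 ± 0.233 without wild type replicate 3 (adjusted p = 1 by edgeR). The other 4 of the 6 lower genes with the smallest p without wild type replicate 3 were nearly absent from the Cdh2-cKO libraries. Trpm2, a cation channel of myeloid cells, had 7, 17 and 169 counts in the wild type and 0, 2 and 1 in the Cdh2-cKO libraries. Naip6, a sensor of bacterial proteins, had 8, 9 and 64 counts against 2, 0 and 1. Trim30c had 3, 6 and 39 counts against 0, 0 and 0. All of Trpm2, Naip6 and Trim30c were CD45-enriched and highest in wild type replicate 3. Naip6 and Trim30c belong to families of close copies, among which uniquely aligned reads may be lost or misplaced. Fads6, annotated as a fatty acid desaturase, was not CD45-enriched and had 36, 5 and 7 counts in the wild type against 1, 2 and 0 in the Cdh2-cKO libraries. None of Znfx1, Trpm2, Naip6, Trim30c and Fads6 was called by edgeR in either comparison, or by DESeq2 without wild type replicate 3. With all 6 libraries DESeq2 called Znfx1, Trpm2, Naip6 and Trim30c, with adjusted p between 0.000366 and 0.00182, and gave none for Fads6. With wild type replicate 2 left out instead of replicate 3, edgeR called Znfx1, Trpm2 and Naip6 (adjusted p = 0.0437, 0.0352 and 0.0302), and with wild type replicate 1 left out also Trim30c (adjusted p = 0.0146).

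Among the higher genes, Cox5a had the smallest p without wild type replicate 3. It encodes a subunit of cytochrome c oxidase of the respiratory chain (chr9:57521274-57532426). Its level was 6.39, 5.99 and 14.9 CPM in the wild type and 11.4, 32.4 and 22.8 CPM in the Cdh2-cKO libraries. Wild type replicate 3 overlapped the Cdh2-cKO range. The log2 fold change was 1.29 ± 0.39 with all 6 libraries and 1.86 ± 0.41 without wild type replicate 3, where edgeR's adjusted p was 1 and DESeq2's was 0.021. DESeq2 also called it with all 6 libraries (adjusted p = 0.0221). The symbols of 96 tested genes begin with Nduf, Uqcr, Cox or Atp5, most of them of oxidative phosphorylation. Without wild type replicate 3, 3 of the 96 were higher and 1 was lower at an unadjusted p under 0.05. Among all genes these shares were 1.28% and 2.17%. The median log2 fold change of the 96 was -0.18 in that comparison, below 0 where Cox5a was above it.

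Wdr36, needed for processing of ribosomal RNA, was at 60.7, 72 and 76 CPM in the wild type and at 119, 161 and 89.3 CPM in Cdh2-cKO cells, without overlap. Its log2 fold change was 0.82 ± 0.196 with all 6 libraries and 0.91 ± 0.222 without wild type replicate 3. Zcrb1, a protein of the minor spliceosome, was at 20.5, 22.4 and 28.4 CPM against 29.6, 49.3 and 40.8 CPM. Its groups did not overlap, though wild type replicate 3 came close to Cdh2-cKO replicate 1, and its log2 fold change was 0.75 ± 0.208. With all 6 libraries DESeq2 called Wdr36 and Zcrb1, with adjusted p of 0.00266 and 0.0105. Ttc27 was at 14.3, 17.7 and 26.7 CPM against 24.6, 35.8 and 24.8 CPM. Dtl, an adaptor of a ubiquitin ligase that acts in DNA replication, was at 5.51, 4.76 and 17.2 CPM against 11.7, 12.7 and 11.1 CPM. For both Ttc27 and Dtl wild type replicate 3 lay above the lowest Cdh2-cKO library. Pcsk1, a protease of prohormones, had 0, 0 and 7 counts in the wild type and 6, 3 and 8 counts in the Cdh2-cKO libraries, which is near the floor of 3 counts. Wdr36, Zcrb1, Ttc27, Dtl and Pcsk1 were not called by edgeR in either comparison.

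The 3 calls that DESeq2 made without wild type replicate 3 were Tnfsf13b, Cox5a and Gm4759. The last of these was named after its values were seen and had 1, 0 and 2 counts in the wild type and 0 in each Cdh2-cKO library, below the floor of 3 counts in every library.

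Interferon-stimulated genes stood below the wild type in Cdh2-cKO cells as a group, although edgeR called none of them in either comparison. DESeq2 called 1, Oas1a, an RNA sensor named after its values were seen, with all 6 libraries, and none without wild type replicate 3. Oas1a was lower, and DESeq2 called 3.44% and 0.0133% of all genes lower in these comparisons. All 22 listed genes passed the filter on low counts. Their summed level was 1270, 770 and 1086 CPM in the wild type and 599, 505 and 698 CPM in the Cdh2-cKO libraries, without overlap. The median log2 fold change was -0.86 with all 6 libraries and -0.78 without wild type replicate 3, against medians of -0.06 and -0.03 over all genes tested. All 22 were below 0 with all 6 libraries and 21 without wild type replicate 3, against 56.3% and 53.9% of all genes. At an unadjusted p under 0.05, 11 were lower with all 6 libraries and 7 without wild type replicate 3, and none was higher in either, against 8.44% and 2.17% lower among all genes. The 3 Cdh2-cKO libraries lay below the 3 wild type libraries for 12 of the 22, against 5.35% of all genes. Only Mx1 of the list was CD45-enriched, and without it the median was -0.77 when wild type replicate 3 was left out. Of all lists, markers included, only this one, complement, and cadherins and catenins had summed levels without overlap between the groups. Among single genes such separation was found for 5.35% below and 3.84% above the wild type, so it does not by itself set these lists apart. The list was chosen with earlier results of these data known.

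The members of the list took part to different degrees. Usp18, which removes the ubiquitin-like protein ISG15 from its targets, was at 102, 75.5 and 80 CPM in the wild type and at 44.7, 36.9 and 61.1 CPM in the Cdh2-cKO libraries, with a log2 fold change of -0.88 without wild type replicate 3. Ifit1, an antiviral protein that binds foreign RNA caps, was at 86, 48.5 and 53.5 CPM against 35.7, 22.8 and 43.4 CPM. Bst2, or tetherin, which holds budding viruses to the cell, was at 116, 93.5 and 103 CPM against 80.4, 53.7 and 57.6 CPM. None of these 3 genes overlapped between the groups, and wild type replicate 2 was the lowest wild type library for each. Gbp2 and Irgm1 are GTPases induced by interferon. Irgm1 was at 124, 79.3 and 96.9 CPM against 51, 54.8 and 67.6 CPM. Gbp2 was at 134, 79.7 and 124 CPM against 75.5, 65.8 and 83.7 CPM, so that Cdh2-cKO replicate 3 exceeded wild type replicate 2. Irf9, a transcription factor of the response, was at 53.4, 34.5 and 60.8 CPM against 26.8, 25 and 30.2 CPM, without overlap. Ifit2, Oas2, Ifih1, Rsad2, Ifi44 and Ddx58 overlapped between the groups as well. Ifit1 and Ifit3 have close paralogs, and their levels are uncertain to the extent that reads align to both.

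**Figure D3:**
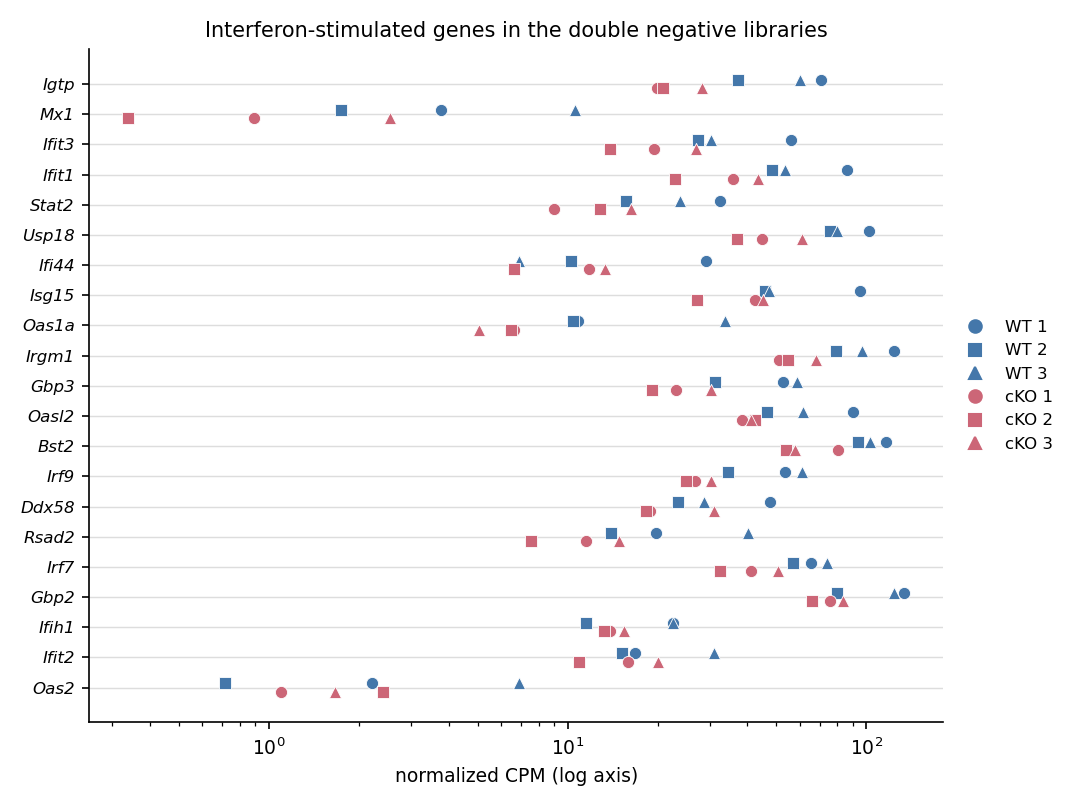
Normalized CPM (log axis) of 21 of the 22 interferon-stimulated genes in the 6 double negative libraries, ordered by log2 fold change without wild type replicate 3, with wild type (WT) in blue, Cdh2-cKO (cKO) in red and one symbol per replicate. For 12 genes the 3 Cdh2-cKO points lie left of the 3 wild type points.

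The size of this difference depended on wild type replicate 1. With that library left out in place of replicate 3, the median log2 fold change of the interferon-stimulated genes was -0.62, and with both left out it was -0.30, where wild type replicate 2 alone stood for the wild type. With the summed pan-leukocyte markers as a covariate the median was -0.86 with all 6 libraries. Without wild type replicate 3, that covariate moved the pan-leukocyte and macrophage medians from -1.10 and -1.50 to 0.61 and 0.60. The covariate fit therefore does not show what part leukocyte RNA had. The interferon-stimulated genes summed to 887 to 2316 CPM in the CD45+ libraries and to 541 to 841 CPM in the TdT single positive libraries. Wild type replicates 1 and 3 were also those highest in fibroblast and in leukocyte markers, and the part of these cell types in the difference was not tested. In the other populations the median log2 fold change of the same list was -0.07 in TdT single positive, -0.28 in double positive and -0.42 in CD45 single positive cells.

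The promoters of some of these genes are shown because interferon-induced genes are known to share a short DNA element there. The core GAAANNGAA of the interferon-stimulated response element was searched on both strands of RefSeq promoters on GRCm38.p6, each reaching from 250 bases before to 50 bases after the transcription start. Of the 22 interferon-stimulated genes, 18 had a promoter in the table, and 14 of these (77.8%) held the core, against 9.76% of 27025 genes and 8.56% of all promoters of this length. The promoters of Ifit3 (chr19:34583279-34583578, + strand), Ifit1 (chr19:34640639-34640938, + strand) and Bst2 (chr8:71537423-71537722, - strand) are printed 5′ to 3′ with the core in capitals on either strand, as those of the 3 listed genes with a promoter whose groups did not overlap and whose p was smallest without wild type replicate 3. Overlapping matches run together, as in Ifit1 and Bst2.
Ifit3: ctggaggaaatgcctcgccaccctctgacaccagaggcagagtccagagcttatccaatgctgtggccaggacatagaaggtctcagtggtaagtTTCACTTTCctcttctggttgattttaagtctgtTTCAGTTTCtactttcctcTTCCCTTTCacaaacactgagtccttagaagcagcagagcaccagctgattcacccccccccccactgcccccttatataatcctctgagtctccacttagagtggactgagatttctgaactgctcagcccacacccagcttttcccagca
Ifit1: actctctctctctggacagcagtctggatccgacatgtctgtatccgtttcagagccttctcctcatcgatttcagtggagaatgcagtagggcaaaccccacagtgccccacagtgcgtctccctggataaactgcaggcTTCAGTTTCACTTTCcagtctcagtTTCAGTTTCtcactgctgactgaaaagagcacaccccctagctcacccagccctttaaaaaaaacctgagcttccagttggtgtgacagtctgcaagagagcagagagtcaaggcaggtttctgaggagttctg
Bst2: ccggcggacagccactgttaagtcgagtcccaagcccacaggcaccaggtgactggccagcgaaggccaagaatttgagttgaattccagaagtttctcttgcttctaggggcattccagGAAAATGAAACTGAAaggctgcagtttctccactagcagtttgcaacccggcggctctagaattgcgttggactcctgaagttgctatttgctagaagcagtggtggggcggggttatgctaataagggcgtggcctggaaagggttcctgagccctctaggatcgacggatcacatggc
Ifit3 and Ifit1 each held 3 copies and Bst2 held 2. The promoter of Tnfsf13b at the annotated gene start did not hold these letters. Among the other immune lists, the core was in 2 of 9 promoters of MHC class I processing (22.2%), 4 of 15 of the chemokine ligands (26.7%) and 1 of 8 of the complement genes (12.5%). A match describes the sequence and is not evidence of binding.

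Genes of MHC class I presentation, which load peptides from the proteasome onto cell surface molecules, followed a like pattern. All 11 listed genes were tested. The median log2 fold change was -0.90 with all 6 libraries and -0.56 without wild type replicate 3, and 7 and 2 of the 11 were lower at an unadjusted p under 0.05, against 8.44% and 2.17% of all genes. Psmb8, a subunit of the immunoproteasome, was at 68.8, 51.2 and 139 CPM in the wild type and at 30.1, 20.7 and 29.8 CPM in the Cdh2-cKO libraries, without overlap. Its log2 fold change was -1.68 ± 0.342 and, without wild type replicate 3, -1.14 ± 0.305, not called by edgeR (adjusted p = 0.178 and 1). With wild type replicate 1 or 2 left out instead, edgeR called Psmb8 (adjusted p = 0.0153 and 0.0352), and DESeq2 did so with all 6 libraries (adjusted p = 0.00141). Psmb9, its partner subunit and the only CD45-enriched gene of the list, was at 30.8, 22.2 and 91.6 CPM against 14.2, 8.38 and 10.4 CPM. H2-K1 was at 408, 232 and 526 CPM against 205, 183 and 208 CPM, and H2-D1 at 612, 589 and 1195 CPM against 409, 469 and 530 CPM. Both encode heavy chains so alike in sequence that reads can be lost or exchanged between them. B2m, their shared light chain, was at 2685, 1592 and 3726 CPM against 1967, 1069 and 1266 CPM, with Cdh2-cKO replicate 1 above wild type replicate 2. Erap1, which trims the peptides, went the other way without wild type replicate 3, with a log2 fold change of 0.44 and an unadjusted p of 0.0789 by edgeR. With wild type replicate 1 left out as well, the median of the list was -0.24.

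Chemokine ligands, which draw leukocytes into tissue, held both CD45-enriched genes and genes of fibroblasts. All 22 were tested, and their summed level was 4419, 1977 and 9455 CPM in the wild type and 1020, 1024 and 2220 CPM in the Cdh2-cKO libraries, so that Cdh2-cKO replicate 3 exceeded wild type replicate 2. The median log2 fold change was -1.82 with all 6 libraries and -1.16 without wild type replicate 3, and 12 and 9 members were lower at an unadjusted p under 0.05, against 8.44% and 2.17% of all genes. DESeq2 called 6 of them lower with all 6 libraries and 0 without wild type replicate 3, against 3.44% and 0.0133% of all genes. Leaving out the 9 CD45-enriched members, the median was -1.38 and -1.72. Cxcl9, a ligand induced by interferon gamma, was at 83, 4.86 and 69.8 CPM in the wild type and at 4.36, 4.56 and 3.25 CPM in Cdh2-cKO cells. The wild type libraries split here, with replicate 2 near the level of the Cdh2-cKO libraries. Ccl7, a monocyte attractant, was at 1207, 415 and 1958 CPM against 215, 262 and 422 CPM. Ccl2, its neighbour in function, was at 649, 562 and 2230 CPM against 187, 255 and 747 CPM. Cxcl12, a product of fibroblasts, was at 246, 49 and 25.7 CPM against 50.2, 28.9 and 49.7 CPM, so that only wild type replicate 1 stood above the Cdh2-cKO libraries. Ccl6 was at 27.1, 135 and 1729 CPM against 49.3, 45.4 and 45.1 CPM, a pattern of wild type replicate 3. With wild type replicates 1 and 3 both left out, the median over the ligands was -0.40.

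Complement genes had the lowest median of the functional lists, cell type markers aside, once wild type replicate 3 was left out, at -1.31, against -1.05 with all 6 libraries. Of 14 members tested, 5 were lower and 1 was higher at an unadjusted p under 0.05 with all 6 libraries, and 4 were lower without wild type replicate 3. Among all genes these shares were 8.44% lower and 1.16% higher, and 2.17% lower without wild type replicate 3. Their summed level was 3370, 1850 and 3361 CPM in the wild type and 1148, 1140 and 1343 CPM in Cdh2-cKO cells, without overlap, but different genes made up the sum in different wild type libraries. C3, the central component, was at 986, 288 and 130 CPM in the wild type and at 225, 212 and 166 CPM in Cdh2-cKO cells, so that wild type replicate 3 was the lowest of all. Serping1, the inhibitor of the first complement proteases, was at 1733, 897 and 260 CPM against 649, 592 and 816 CPM. C5ar1, a receptor on myeloid cells and CD45-enriched, was at 7.9, 173 and 1257 CPM against 19.1, 32.7 and 19.5 CPM. DESeq2 called 2 of the 14 lower with all 6 libraries, C5ar1 among them, and 0 without wild type replicate 3. Among all genes it called 3.44% and 0.0133% lower in these comparisons. Cfb, a protease of the alternative pathway, was at 9.97, 5.73 and 5.51 CPM against 3.78, 2.81 and 2.88 CPM, 1 of 2 of the 14 members without overlap, against 5.35% of all genes. The member that was higher was Cfd, or adipsin, a protease made by adipocytes, with 1, 14 and 1 counts in the wild type and 34, 1 and 145 counts in the Cdh2-cKO libraries. Without wild type replicate 1 the median was -0.12 with the other 5 libraries, and with replicates 1 and 3 both left out it was -0.57. In TdT single positive cells the same list had a median of -1.61.

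The 9 MHC class II genes are made by professional antigen presenting cells, and all were CD45-enriched. Cd74, the chain that guards the peptide groove, was at 426, 1511 and 25337 CPM in the wild type and at 444, 1100 and 440 CPM in the Cdh2-cKO libraries. At an unadjusted p under 0.05 by edgeR, all 9 were lower with all 6 libraries and none without wild type replicate 3. Among all genes these shares were 8.44% and 2.17%. DESeq2 called 8 lower and 0 in these comparisons, against 3.44% and 0.0133% of all genes. The median log2 fold change of the 9 was -3.43 with all 6 libraries and -0.51 without wild type replicate 3. Macrophage markers likewise had medians of -3.79 and -1.50 over 10 genes.

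**Figure D4:**
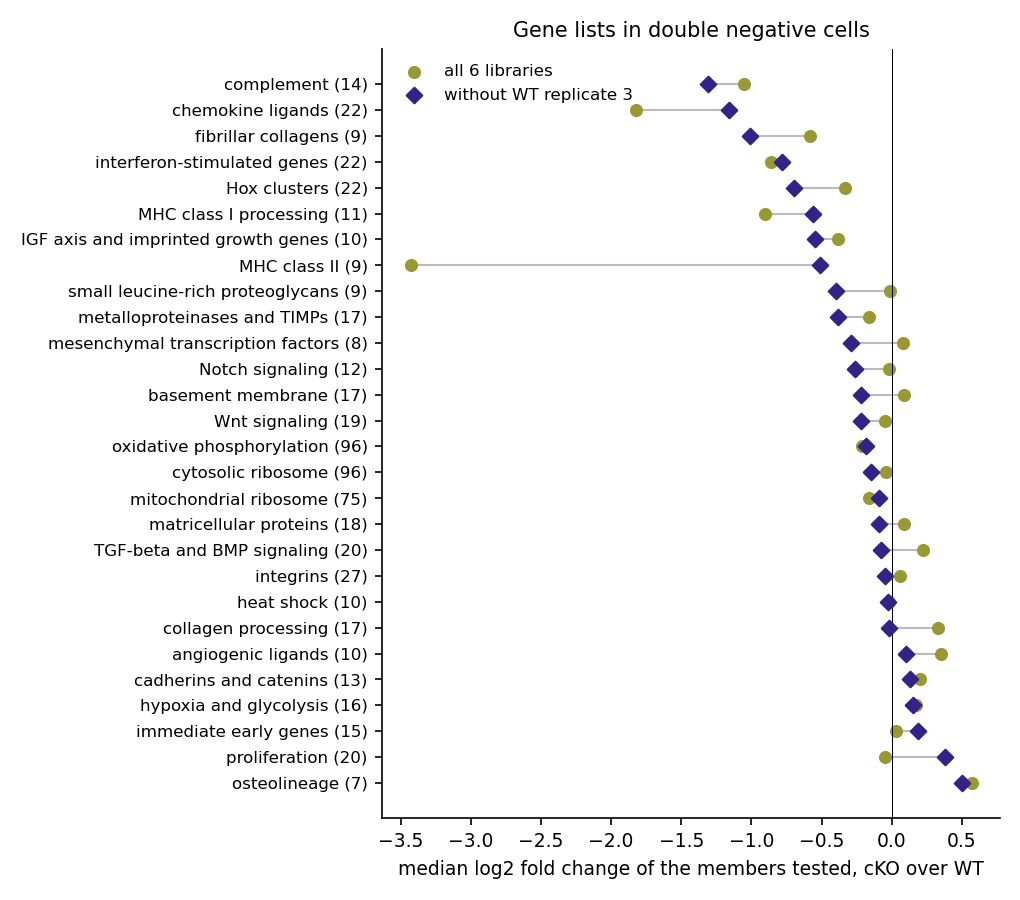
Median log2 fold change, Cdh2-cKO over wild type, of the tested members of each gene list (number in brackets) with all 6 libraries (circles) and with wild type replicate 3 left out (diamonds). MHC class II moves from -3.43 to -0.51, while interferon-stimulated genes stay at -0.86 and -0.78.

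The abundant fibrillar collagens were highest in wild type replicate 1, and Col1a1, Col1a2 and Col3a1 are themselves among the fibroblast markers. Of 9 fibrillar collagens tested among 11 listed, none was lower at an unadjusted p under 0.05 with all 6 libraries. Without wild type replicate 3, 2 were lower, Col3a1 and Col1a2. Among all genes 8.44% and 2.17% were lower in these comparisons. Col3a1 was at 8314, 2031 and 990 CPM in the wild type and at 1764, 1995 and 2430 CPM in Cdh2-cKO cells, and Col1a2 at 9339, 2485 and 984 CPM against 2633, 2317 and 3627 CPM. In both, the Cdh2-cKO libraries lay between wild type replicates 1 and 3. The median over the list was -0.58 with all 6 libraries, -1.01 without wild type replicate 3 and 0.91 without wild type replicate 1, so that its direction depended on which wild type library was used. No member of the basement membrane or collagen processing lists had an unadjusted p under 0.05 in either comparison, with medians of -0.22 and -0.02 without wild type replicate 3. The medians without wild type replicate 3 were -0.40 for small leucine-rich proteoglycans, -0.09 for matricellular proteins and -0.38 for metalloproteinases and their inhibitors. Sparc, an abundant matricellular protein, was at 21238, 11727 and 3309 CPM in the wild type and at 8543, 9363 and 14199 CPM in Cdh2-cKO cells. Fn1, fibronectin, overlapped between the groups, at 2903, 2854 and 2581 CPM against 3079, 2355 and 3319 CPM.

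Developmental and signaling lists had medians on both sides of 0. Without wild type replicate 3 the medians were -0.08 for TGF-beta and BMP signaling, -0.22 for Wnt, -0.26 for Notch, -0.55 for the IGF axis, -0.70 for the 22 Hox genes tested, -0.29 for mesenchymal transcription factors, 0.10 for angiogenic ligands and -0.05 for integrins. Members with an unadjusted p under 0.05 in that comparison numbered at most 3 in each. The Wnt list had 3 lower of 19 tested, the IGF axis 2 lower of 10 and the Hox genes 1 lower of 22. Notch had 1 higher of 12. Among all genes 2.17% were lower and 1.28% higher. Inhba, which encodes a subunit of activin, was at 537, 276 and 172 CPM in the wild type and at 423, 503 and 633 CPM in Cdh2-cKO cells. Itga6, a laminin receptor subunit, was at 108, 126 and 114 CPM against 274, 214 and 146 CPM, without overlap, with a log2 fold change of 0.87. Proliferation genes had a median of -0.05 with all 6 libraries and 0.38 without wild type replicate 3. In the latter comparison 3 of 20 were higher at an unadjusted p under 0.05, against 1.28% of all genes. Top2a, a topoisomerase of dividing cells, was at 67.3, 114 and 255 CPM against 193, 193 and 81.4 CPM. Hypoxia and glycolysis (0.17 and 0.15), immediate early (0.03 and 0.19), heat shock (-0.02 and -0.03), cytosolic ribosome (-0.04 and -0.15) and mitochondrial ribosome genes (-0.16 and -0.09) had small medians with and without wild type replicate 3.

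Osteolineage genes were checked because Cre was driven by the Osx promoter. Sp7 itself had 1, 1 and 0 counts in the wild type and 0 in each Cdh2-cKO library, which allows up to 0.181 CPM in the shallowest. Runx2, its upstream regulator, was at 40.5, 16.8 and 14.2 CPM in the wild type and at 24.8, 23.7 and 33.7 CPM in Cdh2-cKO cells. Dmp1, a matrix protein of osteocytes, was at 3.54, 17.4 and 13.4 CPM against 25.2, 49.6 and 25.6 CPM, without overlap, with a log2 fold change of 1.55 that neither edgeR nor DESeq2 called. In TdT single positive, double positive and CD45 single positive cells it was 0.83, 0.56 and 3.08, not called by edgeR. Dmp1 was highest in replicate 2 of each group, as were the luminal epithelial markers, and their part in its level was not tested. Of the 12 listed genes 7 were tested, with a median of 0.57 with all 6 libraries and 0.50 without wild type replicate 3. Of the 7, only Dmp1 was above the wild type in all Cdh2-cKO libraries, against 3.84% of all genes.

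Cdh2 itself, the gene named by the knockout, was not lower in the double negative cells of the Cdh2-cKO mice. It was at 6.02, 7.47 and 4.52 CPM in the wild type and at 12.5, 18.4 and 14.2 CPM in the Cdh2-cKO libraries. Every Cdh2-cKO library was above every wild type library. The log2 fold change was 1.32 ± 0.694 with all 6 libraries (adjusted p = 0.625 by edgeR) and 1.17 ± 0.772 without wild type replicate 3 (adjusted p = 1 by edgeR), so that edgeR did not call the gene, nor did DESeq2 (adjusted p = 0.382 and 1). The counts are summed over all exons of the gene and do not show whether a deleted part was transcribed. In TdT single positive cells, in which the reporter marks Cre activity, Cdh2 was at 9.14 and 5.19 CPM in the wild type and at 17.2 and 13.1 CPM in the Cdh2-cKO libraries. Double positive libraries had at most 12 counts of it, and CD45 single positive libraries between 6 and 41 counts. The luminal epithelial markers, which sum to 505, 1404 and 595 CPM in the wild type and to 1228, 1994 and 1064 CPM in the Cdh2-cKO libraries, were highest in the library with the most Cdh2 in each group, and their part in the level of Cdh2 was not tested.

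**Figure D5:**
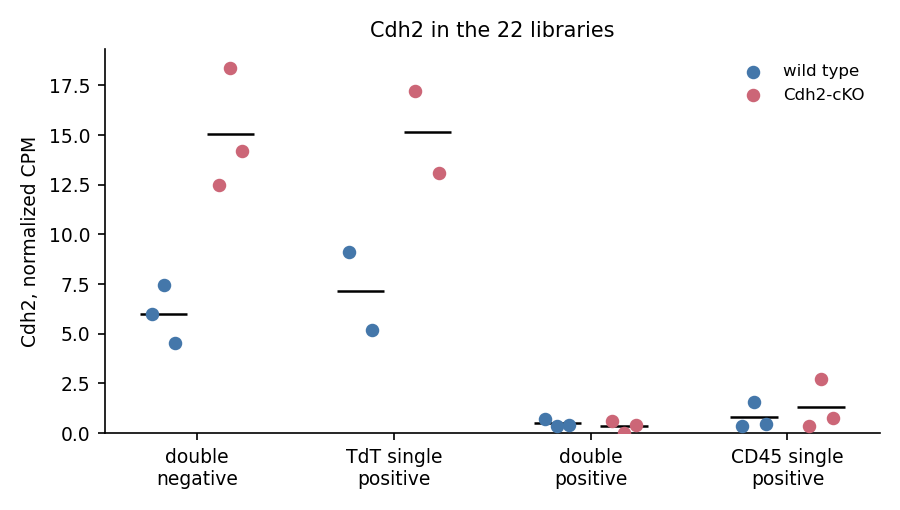
Normalized CPM of Cdh2 in the 22 libraries by sorted population, with wild type in blue, Cdh2-cKO in red and the group mean as a black line. In double negative cells the Cdh2-cKO points (12.5 to 18.4) lie above the wild type points (4.52 to 7.47).

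The partners of N-cadherin at the junction were examined next, as 13 cadherins and catenins, all tested. Ctnna1, or alpha-catenin, which links cadherins to actin, was at 295, 341 and 259 CPM in the wild type and at 390, 549 and 524 CPM in Cdh2-cKO cells, without overlap, with a log2 fold change of 0.71 ± 0.205 with all 6 libraries (adjusted p = 0.18 by edgeR) and 0.64 ± 0.233 without wild type replicate 3. DESeq2 called Ctnna1 with all 6 libraries, with an adjusted p of 0.0168. Vcl, or vinculin, which strengthens that link, was at 21.8, 23.7 and 16.8 CPM against 25.1, 53.3 and 52.6 CPM, without overlap. Ctnnb1, or beta-catenin, was at 229, 166 and 133 CPM against 203, 173 and 188 CPM, with overlap and a log2 fold change of 0.09. Cdh11, the main cadherin of fibroblasts, was at 183, 38 and 25.5 CPM against 58.2, 42.4 and 94.7 CPM. Cdh1, or E-cadherin, was CD45-enriched and highest in wild type replicate 3, at 1.93, 5.42 and 117 CPM against 3.73, 2.81 and 5.29 CPM. DESeq2 called Cdh1 lower with all 6 libraries, and edgeR did so with wild type replicate 1 left out, among 600 lower genes. Without wild type replicate 3 DESeq2 called 0 of the 13. With all 6 libraries it called 3.44% of all genes lower and 0.199% higher. Ctnna1, Vcl and Cdh2 were the 3 members whose Cdh2-cKO libraries all lay above the wild type, and no member had the reverse, against 3.84% and 5.35% of all genes. The median of the list was 0.20 with all 6 libraries and 0.13 without wild type replicate 3.

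Skeletal muscle markers summed to 60.8, 186 and 38.2 CPM in the Cdh2-cKO libraries and to 13.3, 45.7 and 12.9 CPM in the wild type, with Cdh2-cKO replicate 3 below wild type replicate 2. At an unadjusted p under 0.05, 3 of the 6 tested were higher with all 6 libraries and 1 without wild type replicate 3, against 1.16% and 1.28% of all genes. Acta1, the actin of muscle fibers, was at 46.7, 136 and 30.9 CPM in Cdh2-cKO cells and at 9.19, 34 and 8.54 CPM in the wild type, with overlap between Cdh2-cKO replicate 3 and wild type replicate 2. Tnnt3, a troponin of fast muscle, was at 5.31, 19.2 and 3.38 CPM against 0.965, 3.17 and 0.991 CPM, without overlap. The median log2 fold change of the 6 markers tested was 1.96 with all 6 libraries and 1.60 without wild type replicate 3, and 0.70 when Cdh2-cKO replicate 2 was left out too. edgeR and DESeq2 called 0 of the 6 in either comparison.

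Whether the genotype difference in double negative cells departed from that in the other populations was tested with all 22 libraries, as the difference from the mean of the 3 other genotype contrasts. No gene was called by edgeR, 0 of 15043 with all libraries and 0 of 15030 without wild type replicate 3 (0% each), while 1389 and 479 had an unadjusted p under 0.05. DESeq2 called 522 and 7, and voom 0 and 0. The 5 genes with the smallest p in edgeR were Nlrp10, Aldh1b1, Naip6, Slc9a4 and Csf2rb2, all CD45-enriched and with an adjusted p of 0.139. Csf2rb2, a receptor subunit for interleukin 3, was at 11.5, 7.93 and 37.8 CPM in wild type double negative cells and at 2.52, 3.39 and 5.42 CPM in Cdh2-cKO cells, without overlap. Its log2 fold change was -2.33 ± 0.475 in double negative cells and 1.15 in TdT single positive cells. Aldh1b1, a mitochondrial aldehyde dehydrogenase, was at 1.24, 3.84 and 17.1 CPM against 0.788, 1.07 and 0.458 CPM, also highest in wild type replicate 3. Nlrp10 was at 13, 13 and 46 counts in the wild type and at 3, 2 and 6 counts in Cdh2-cKO cells, and Slc9a4 at 40, 21 and 189 counts against 6, 30 and 25. In TdT single positive cells the leukocyte content moved the other way, with a pan-leukocyte sum of 685 and 2618 CPM in the wild type and of 2743 and 5658 CPM in the Cdh2-cKO libraries, and the part of this in the difference was not tested.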

How the data were processed

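RNA of sorted tumor stroma was sequenced from 22 libraries, and groups were taken from the labels. Per the study's methods, cDNA was made with the SMARTer Ultra Low kit and sequenced with single end reads. The authors aligned the reads to GRCm38 with STAR (version 2.0.4b in the submitters' processing notes) and counted uniquely aligned reads on genes with featureCounts (version 1.45 in those notes), without strand information stated. The deposited counts are whole numbers for 41388 genes, without normalization. The deposited CPM values were made by the authors from the counts and library totals, and the deposited RPKM values by further division by gene length. Both were used only as a check, and deviated from the counts by at most 5.1e-14 in relative terms. Symbols were matched to GENCODE release M21 for 40254 genes.

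The 355 rRNA genes were left out, and genes with over 1 CPM in at least 2 libraries were kept. TMM factors and edgeR 4.0.16 (R 4.3.3) were used, with a quasi-likelihood fit of 1 mean per population and genotype over all 22 libraries, so that the populations shared the estimate of spread. Calls were made where p after Benjamini-Hochberg adjustment was no larger than 0.05, with no fold threshold. Standard errors were derived from the test. CD45-enriched genes were those called and higher by 2 or more on the log2 scale in both CD45+ populations combined than in TdT single positive cells. The comparison was repeated without wild type replicate 3. Alternatives were limma 3.58.1 voomWithQualityWeights, DESeq2 1.42.0, RLE factors, no filter, a filter of 10 counts in 3 double negative libraries, fits on the double negative or the CD45- libraries only, the replicate number as a block, a leukocyte covariate and leaving out each double negative library. The fit was run on simulated counts with known changes, in which the spread of each gene was capped. How the fit does at the spread of these wild type libraries was therefore not tested. Replicates are called biological in the labels, which do not tie libraries to mice. No molecular identifiers were used, so floors of 3 counts reflect counting error alone.

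The members and gene lists were chosen with earlier results of these data known. Genes were named as Cdh2, the 6 genes per direction with the smallest p without wild type replicate 3, since none was called, the 5 with the smallest p in the test against the other populations, and the best expressed members of lists. Any other gene, among them list members outside the 3 best expressed, was named after its values were seen. Columns of per-sample values were all assigned to a sample. The values of 2 genes are not reported here, though counts and list summaries include them.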

Additional observations from a re-analysis of the deposited data

How the results depend on the processing

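The counts of called genes were 0 by edgeR with all 6 libraries and without wild type replicate 3, and they moved with the test and with the wild type libraries. With all 6 double negative libraries, DESeq2 called 30 higher and 518 lower genes, and 522 genes in the test against the other populations, where a fit with no filter on low counts called 43. Leaving out 1 double negative library gave between 0 and 3 higher genes, between 0 and 600 lower genes and between 0 and 677 genes against the other populations, with the highest values without wild type replicate 1. Without wild type replicate 2 the counts were 0, 31 and 17, and without any other library they were 0. With wild type replicate 3 left out, DESeq2 called 1 higher and 2 lower genes and 7 against the other populations, and voom called 1 lower gene. Leaving out a further library, an alternative chosen after seeing the data like the list medians without CD45-enriched genes, called 0, and a lone wild type library was then assumed to vary like the other groups. Fits on the double negative or the CD45- libraries only, RLE factors, the stricter filter and the leukocyte covariate called 0 genes between the genotypes, and so did voom with all 6 libraries. The fit with the replicate number as a block called 0 in all 6 counts. The numbers were not treated as pairs, since same-numbered wild type and Cdh2-cKO libraries come from different mice and their deviations correlated at -0.0154, 0.0363 and -0.152. Direction was followed for 19 log2 fold changes, not all of them printed above. They were those of Cdh2 in both comparisons and those of the 6 genes per direction without wild type replicate 3. The others were those of Nlrp10, Aldh1b1, Naip6, Slc9a4 and Csf2rb2 against the other populations. All 238 values under the alternatives kept the direction. Apart from Cdh2, these genes were picked for a small p in the same libraries, so that a kept direction says little about them. Of all 106 genes that the rule names and that were tested in both comparisons, 16 had the other sign without wild type replicate 3, Ctnnb1 and Runx2 among them. The cause of the differences between tests was not tested.

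Each group held 3 libraries, and those of the wild type spread far apart in cell type markers. Depth was even, so that the floor of 3 counts lay between 0.148 and 0.181 CPM. Low genes near that floor, such as Trim30c, Pcsk1 and Sp7, carry no usable fold change. Gene length, strand and close gene copies remain as the counting left them.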
